A study of Mus musculus with 4 samples.

Results

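Adcyap1, Vip, Adcyap1r1, Vipr1 and Vipr2 encode a pair of related neuropeptides and their receptors, and were followed by symbol as 5 of the 33696 genes counted in nuclei of the mouse hypothalamus. Adcyap1 (ENSMUSG00000024256) encodes PACAP and Vip (ENSMUSG00000019772) encodes vasoactive intestinal peptide. Adcyap1r1 encodes the receptor that prefers PACAP, and Vipr1 and Vipr2 encode receptors that bind both peptides.

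PACAP and VIP belong to the secretin and glucagon family of peptides. Their receptors couple mainly to the stimulatory G protein, so that binding raises cAMP in the receiving cell. In the suprachiasmatic nucleus, the circadian clock of the hypothalamus, VIP released by ventral neurons acts through the receptor encoded by Vipr2 and helps to keep clock neurons in step, and PACAP reaches the nucleus in fibres from the retina.

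Single-nucleus RNA was counted in 4 libraries. The titles of all 4 samples read SPF, for specific-pathogen-free, and Baseline. The libraries called ImP 3 and ImP 4 came from wild-type C57BL/6J mice. These mice received 350 µg of imidazole propionate (ImP) each day for 2 weeks from an osmotic pump in the peritoneal cavity. ImP is a bacterial product of histidine breakdown. The libraries called vehicle 1 and vehicle 2 came from mice of the same strain and genotype that carried a pump with the diluent, water containing 1% DMSO. Neither age nor sex is given in the labels, and nothing there says that each library is 1 separate animal. P-values of ImP against vehicle within a class therefore measure the spread between libraries. Fits with library as a block, as for a class or type against neurons, test differences within libraries. Their p-values are set against the residual spread, counting error included.

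A total of 54422 nuclei was kept, 14757 and 15725 in ImP 3 and ImP 4 and 10917 and 13023 in vehicle 1 and vehicle 2. Their median depth was 2852 and 2820 unique molecular identifiers (UMIs) in the ImP libraries, against 3757 and 3179 in the vehicle libraries. Nuclei were sorted into classes and neuron types by marker genes that include none of the 5 genes, and 37019 were called neurons. Between 39 and 76 barcodes were shared by each pair of libraries. ImP 4 stood apart in holding 394 nuclei with pituitary markers, against 4 in ImP 3 and 0 in both vehicle libraries, and these were counted in the values of all nuclei but not among neurons or glia. A level is the CPM value, the count of a gene per 1e6 UMIs of the summed counts of a class in a library.

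The control regions of the peptide genes are shown because they were the members of the family in which the core of a cAMP-response element was found. The letters TGACGTC were searched on both strands (GACGTCA on the other) in the 250 bases before each RefSeq transcription start of build GRCm38.p6, while the counts were made on GRCm39. The core occurs in 914 of 32851 such windows (2.78%) and in those of 854 of 27025 genes (3.16%). It stands 79 bases before the start of Vip and 91 bases before the more upstream start of Adcyap1, and the capitals mark it in the windows chr10:5638968-5639217 and chr17:93198767-93199016, both on the plus strand. The windows of Adcyap1r1, Vipr1 and Vipr2 do not hold these letters, which says nothing of the factors that act there.
Vip: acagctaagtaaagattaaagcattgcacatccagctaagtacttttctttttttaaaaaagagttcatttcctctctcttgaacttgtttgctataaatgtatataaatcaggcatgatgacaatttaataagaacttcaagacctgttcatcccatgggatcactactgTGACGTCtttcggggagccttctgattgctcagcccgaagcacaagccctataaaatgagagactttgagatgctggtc
Adcyap1: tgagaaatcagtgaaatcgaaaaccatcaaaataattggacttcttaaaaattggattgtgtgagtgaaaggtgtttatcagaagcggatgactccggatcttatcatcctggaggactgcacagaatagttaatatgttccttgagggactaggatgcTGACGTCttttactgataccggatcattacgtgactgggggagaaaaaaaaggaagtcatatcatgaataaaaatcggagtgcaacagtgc

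Adcyap1 was a gene of glutamatergic rather than GABAergic neurons. It measured 51.8 and 54.2 CPM in the glutamatergic nuclei of ImP 3 and ImP 4 and 43.2 and 52.4 CPM in those of vehicle 1 and vehicle 2, above the other neurons of the same library in all 4. The log2 fold change of glutamatergic over other neurons was 0.78 (SE 0.057, edgeR quasi-likelihood test with library as a block, adjusted p = 4.9e-13). In GABAergic nuclei its level was 18.2 and 16.8 CPM in the ImP libraries and 8.88 and 12.5 CPM in the vehicle libraries, below the other neurons in every library, with a log2 fold change of -1.51 (SE 0.074, adjusted p = 3.7e-19). Of all genes tested, 7.54% were called higher in glutamatergic and 10% lower in GABAergic neurons.

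Few nuclei held more than a pair of Adcyap1 molecules. Over the 4 libraries 170 nuclei had at least 3 UMIs of it, and 164 of them were neurons. A UMI of a glutamatergic transporter gene (Slc17a6, Slc17a7 or Slc17a8) was seen in 61.8% of these 170 nuclei, against 30.8% of all neurons. A UMI of a GABAergic marker (Slc32a1, Gad1 or Gad2) was seen in 20% of them, against 48.0% of all neurons. The 170 nuclei were deeper, with a median of 5523 UMIs, against 3889 in all neurons.

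Among 20 marker-gated neuron types, Adcyap1 was called higher than in other neurons in 4 and lower in 9, where 3.19% of all gene and type pairs were called higher and 4.34% lower. Neurons gated on Bdnf, the brain-derived neurotrophic factor, led with 116 and 117 CPM in the ImP libraries and 94.0 and 71.6 CPM in the vehicle libraries. The other neurons of the same libraries held 35.3 and 33.7 CPM and 27.3 and 32.9 CPM, so the groups of values did not overlap, and the log2 fold change was 1.67 (SE 0.14, adjusted p = 7.1e-29, 2.13% of genes called higher in this type). Neurons gated on Trh, the thyrotropin-releasing hormone, came next, with 49.7 and 102 CPM in the ImP libraries and 120 and 93.3 CPM in the vehicle libraries. Trh-gated neurons exceeded the other neurons in each library, with a log2 fold change of 1.55 (SE 0.15, adjusted p = 3.2e-21, 1.93% of genes called higher).

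The other types with more Adcyap1 were gated on Tac1, the substance P precursor, and on Sim1, a transcription factor of the paraventricular nucleus. Tac1-gated neurons held 60.2 ± 13.5 CPM and Sim1-gated neurons 48.6 ± 5.20 CPM (mean ± SD, n = 4 libraries). Tac1-gated neurons lay above Sim1-gated neurons in each library, but no test between types was run. The Bdnf and Trh types, at 99.7 ± 21.6 and 91.4 ± 30.0 CPM, changed order between libraries. The log2 fold changes were 0.86 (SE 0.17) for Tac1 and 0.68 (SE 0.069) for Sim1, with 1.31% and 8.09% of genes called higher in them. With nuclei thinned to 2000 UMIs the call was lost for Tac1 (0.84, adjusted p = 0.190). Nuclei gated on Nr5a1 or Fezf1, factors of the ventromedial nucleus, gave 64.2 CPM over 61 nuclei (exact Poisson 95% interval 40.7 to 96.3, counting error only), against 33.1 CPM in all neurons (32.2 to 34.0), and were too few per library for a test.

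At the low end of the order, Adcyap1 measured 8.50 ± 3.69 CPM in Gal-gated, 10.2 ± 5.26 CPM in Hdc-gated and 10.4 ± 4.56 CPM in Pmch-gated neurons (mean ± SD, n = 4 libraries). Gal encodes galanin, Hdc the enzyme that makes histamine, and Pmch the precursor of melanin-concentrating hormone. The log2 fold changes against other neurons were -2.10 (SE 0.48), -1.73 (SE 0.33) and -1.60 (SE 0.38). Types gated on Nts, Lef1, Avp, Lepr, Oxt and Esr1 were also called lower, with log2 fold changes between -1.51 and -0.59. Suprachiasmatic-type neurons held 29.6 and 23.7 CPM in the ImP libraries and 21.9 and 20.3 CPM in the vehicle libraries, below other neurons in all 4, but the difference did not pass the threshold (log2 fold change -0.51, SE 0.25, adjusted p = 0.320).

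Adcyap1 counts were also found in nuclei gated as glia. Astrocytes held 43.6 and 47.0 CPM in the ImP libraries and 23.8 and 28.7 CPM in the vehicle libraries, and oligodendrocytes 41.7 and 37.8 CPM and 20.98 and 33.4 CPM. Neither class was called different from neurons (log2 fold changes 0.01, SE 0.12, and 0.03, SE 0.11). Oligodendrocyte precursors were called lower (-0.76, SE 0.23, adjusted p = 0.0033), but not without vehicle 1 (-0.59, adjusted p = 0.0578) or with a gate stricter by 1 marker (-0.48, adjusted p = 0.270). In nuclei thinned to 2000 UMIs, the share with an Adcyap1 UMI was 11.3% and 9.63% of glutamatergic nuclei in the ImP libraries and 8.38% and 10.0% in the vehicle libraries. The share was 4.85% and 3.81% of oligodendrocytes in the ImP libraries and 4.44% and 3.43% in the vehicle libraries, and stands here as a comparison for free RNA. Only 206 of 1536 and 210 of 1455 oligodendrocytes were deep enough in ImP 3 and ImP 4. In vehicle 1 and vehicle 2 these were 248 of 1138 and 175 of 1311, so the comparison rests on few nuclei of high depth. Glutamatergic nuclei lay above the oligodendrocyte share in every library. GABAergic nuclei, at 4.10% and 3.50% in the ImP libraries and 1.97% and 2.45% in the vehicle libraries, lay below it in every library, so no expression is read from their Adcyap1 counts. Before thinning the shares were 21.2% and 21.2% of glutamatergic nuclei in the ImP libraries and 21.8% and 23.0% in the vehicle libraries, against 5.79%, 5.36%, 3.34% and 4.81% of oligodendrocytes in the same order, at median depths over all libraries of 5313 and 1353 UMIs.

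**Figure D1:**
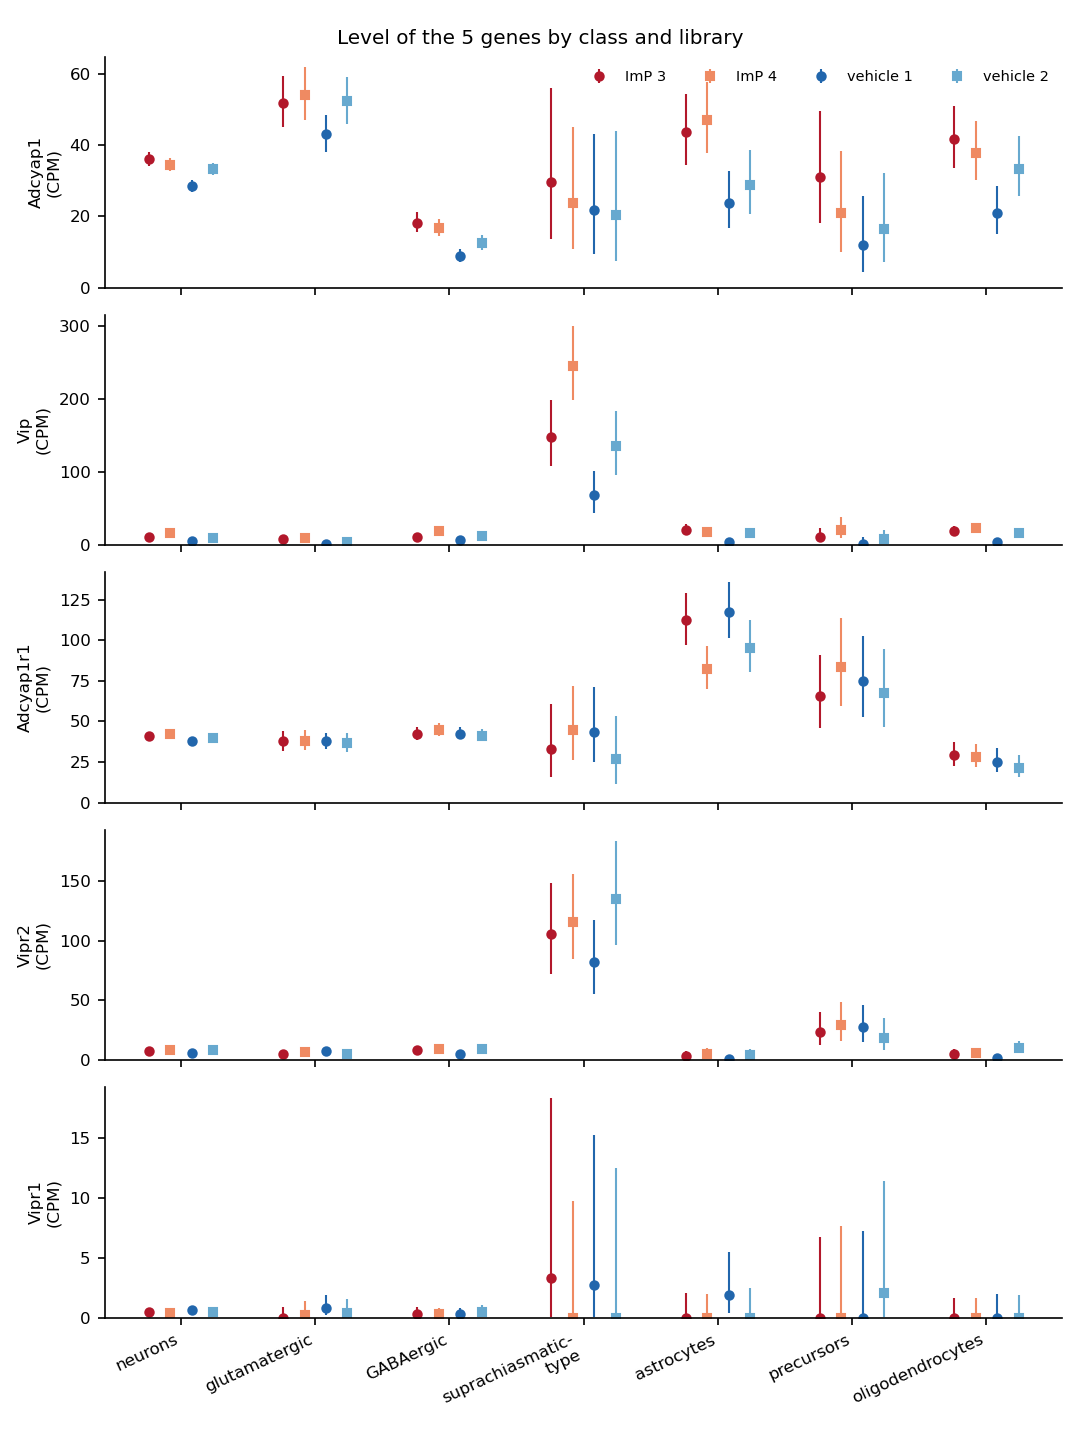
CPM of each gene in 7 classes, with a point per library (ImP 3, ImP 4, vehicle 1, vehicle 2 from left to right) and exact Poisson 95% intervals that cover counting error only. Vip and Vipr2 stand highest in suprachiasmatic-type neurons, Adcyap1r1 in astrocytes and oligodendrocyte precursors, and Adcyap1 is lower in GABAergic than in glutamatergic neurons.

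Vip marked the suprachiasmatic-type neurons, which were gated on at least 3 of Six6, Lhx1, Nms, Prok2, Rorb and Syt10. There were 60 and 89 such nuclei in ImP 3 and ImP 4 and 61 and 70 in vehicle 1 and vehicle 2, or 0.599% and 0.868% of neurons in the ImP libraries and 0.793% and 0.773% in the vehicle libraries. Vip measured 148 and 245 CPM in them in the ImP libraries and 68.4 and 135 CPM in the vehicle libraries. The other neurons of those libraries held 10.2, 14.9, 4.38 and 8.25 CPM in the same order, and each suprachiasmatic value was above all 4 of these. The log2 fold change was 3.95 (SE 0.18, edgeR with library as a block, adjusted p = 8.0e-101), in a type where 2.45% of genes were called higher. With a looser gate of 2 markers, chosen after the data had been seen, it was 2.44 (SE 0.11).

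No other of the 20 types was called higher for Vip. Its level was called lower in Sim1-, Lef1- and Calcr-gated neurons, at 5.66 ± 2.57, 5.51 ± 3.12 and 5.45 ± 4.02 CPM (mean ± SD, n = 4 libraries). Over the 20 types, 4.34% of all gene and type pairs were called lower. The Lef1 call was close to the threshold (edgeR, adjusted p = 0.0452), and no type was called lower for Vip in thinned nuclei. Vip was also lower in glutamatergic neurons, with a log2 fold change of -0.81 (SE 0.14, adjusted p = 3.7e-05, 6.07% of genes called lower). The next types in the order after the suprachiasmatic one were those gated on Gal (18.8 ± 21.3 CPM) and on Nts (12.6 ± 14.5 CPM), whose spread covered the level of other neurons. Of the types with too few nuclei for a test, singled out after their values were seen, Grp-gated neurons held 119.9 CPM over 27 nuclei and 15 UMIs (exact Poisson 95% interval 67.1 to 197.8), against 151 CPM in the suprachiasmatic type (130.9 to 173.2). Cck-gated neurons held 37.95 CPM (19.6 to 66.3) and Pomc-gated neurons 32.8 CPM (20.5 to 49.6). Of the 140 Pomc-gated nuclei, 82 came from ImP 4, the library with many nuclei of pituitary markers. ImP 3 gave 12, and vehicle 1 and vehicle 2 gave 23 each. The part of ImP 4 in the Pomc value was not tested. GABAergic neurons were called higher for Vip, with a log2 fold change of 0.34 (SE 0.090, adjusted p = 0.0052, 8.94% of genes called higher), but lay below the other neurons in ImP 3. That call was lost without vehicle 2 (0.26, adjusted p = 0.0988) and with the stricter gate (0.11, adjusted p = 0.561).

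A minority of the suprachiasmatic-type nuclei carried most of the Vip molecules of the type. The type itself held 7.38% and 10.2% of the Vip UMIs of all kept nuclei in the ImP libraries. In the vehicle libraries it held 10.7% and 8.58%. Its share of all UMIs was 0.624%, 0.740%, 0.768% and 0.613% in the same order. A Vip UMI was found in 10 of 60 and 20 of 89 of these nuclei in the ImP libraries and in 9 of 61 and 14 of 70 in the vehicle libraries. The 5 nuclei with the most Vip held 77.8% and 52.7% of all Vip UMIs of the type in ImP 3 and ImP 4, and 72.0% and 67.5% in vehicle 1 and vehicle 2. The level of the type therefore rested on few nuclei in each library. In nuclei thinned to 2000 UMIs the share with a Vip UMI was 14.5% and 20.9% in the ImP libraries and 8.62% and 15.4% in the vehicle libraries. In oligodendrocytes thinned in the same way it was 2.91% and 1.90% in the ImP libraries, against 0% (0 of 248 nuclei, which allows up to 1.21%) and 1.71% in the vehicle libraries. The suprachiasmatic type lay above the oligodendrocytes in every library, whereas neurons as a whole, at 2.02%, 2.86%, 0.785% and 1.40% in the same order, lay below them in ImP 3 and vehicle 2. Summed counts of oligodendrocytes were called higher than those of neurons for Vip (log2 fold change 0.56, SE 0.16, adjusted p = 0.0046), which turned to -0.50 in thinned nuclei and was lost without ImP 3 (0.46, adjusted p = 0.0686). Median depths before thinning were 3842 UMIs in the suprachiasmatic type and 1353 in oligodendrocytes, and the shares were then 16.7%, 22.5%, 14.8% and 20%, against 2.80%, 3.09%, 0.615% and 1.98%.

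The gate did not hold all Vip-rich nuclei. Over all libraries 62 nuclei had at least 5 Vip UMIs, of which 58 were neurons and 18 passed the suprachiasmatic gate. At least 1 of the 6 suprachiasmatic markers was present in 54 of the 62 (87.1%), against 40.9% of all neurons, at median depths of 3794 and 3889 UMIs. A GABAergic marker was present in 74.2% of them, against 48.0% of all neurons, and a glutamatergic one in 12.9%, against 30.8%. A UMI of Vipr2 was present in 24.2% of the Vip-rich nuclei, against 2.57% of all neurons.

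**Figure D2:**
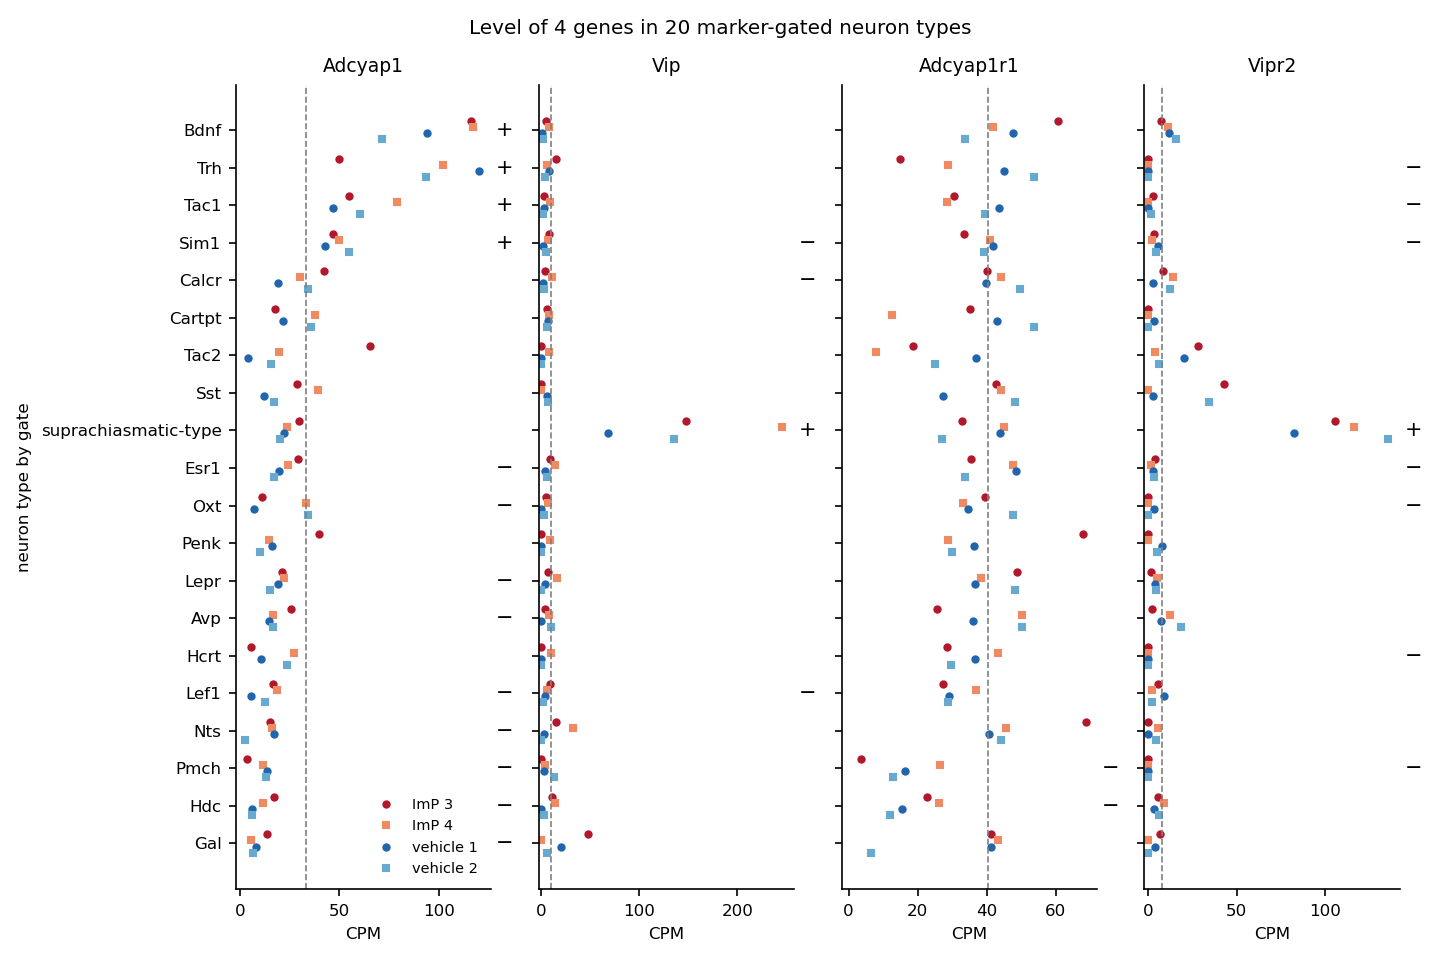
CPM of 4 genes in 20 neuron types ordered by Adcyap1, with a point per library, a dashed line at the mean level of other neurons, and + or − at the right edge where a type was called higher or lower than other neurons. Bdnf- and Trh-gated neurons lead for Adcyap1, suprachiasmatic-type neurons for Vip and Vipr2, and Adcyap1r1 is spread over nearly all types.

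Adcyap1r1, the PACAP receptor gene, was a gene of astrocytes and oligodendrocyte precursors as well as of neurons. Astrocytes held 112 and 82.2 CPM in the ImP libraries and 118 and 95.6 CPM in the vehicle libraries, and precursors 65.8 and 83.4 CPM and 74.9 and 67.5 CPM. Neurons held 41.1 and 42.5 CPM in the ImP libraries and 38.3 and 39.7 CPM in the vehicle libraries, below both glial classes in every library. The log2 fold changes over neurons were 1.23 in astrocytes (SE 0.096, adjusted p = 4.6e-14) and 0.81 in precursors (SE 0.15, adjusted p = 4.2e-07). Oligodendrocytes and microglia were called lower than neurons, with log2 fold changes of -0.61 (SE 0.11) and -1.02 (SE 0.29), the call in microglia being lost without vehicle 2 (-0.79, adjusted p = 0.0501). These comparisons between classes called 57.4% of all genes in astrocytes, 34.9% in precursors, 62.5% in oligodendrocytes and 33.9% in microglia, and 2, 3, 3 and 1 of the 5 genes in that order of classes.

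After thinning to 2000 UMIs, the share of nuclei with an Adcyap1r1 UMI put astrocytes above neurons and neurons above oligodendrocytes in every library. It was 17.4% and 12.2% of astrocytes in the ImP libraries and 21.6% and 17.5% in the vehicle libraries, where 177 to 282 astrocytes per library were deep enough. Neurons had 7.76% and 8.67% in the ImP libraries and 7.41% and 7.95% in the vehicle libraries. Oligodendrocytes had 5.34% and 2.86%, and 4.44% and 2.86%, below neurons in each library. Precursors had 13.0% and 13.7% in the ImP libraries and 11.9% and 10.6% in the vehicle libraries, above neurons in each. Microglia, with 17 to 31 nuclei deep enough per library, had 11.8% and 19.4% in the ImP libraries, above neurons, and 0% in both vehicle libraries (0 of 17 and 0 of 25 nuclei, which allows up to 17.65% and 12%). Without thinning the shares of astrocytes were 15.9%, 12.5%, 18.1% and 13.6%, of neurons 14.8%, 15.2%, 17.5% and 16.1%, and of oligodendrocytes 4.23%, 4.12%, 3.87% and 3.20%, at median depths of 1487, 3889 and 1353 UMIs.

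Across neuron types Adcyap1r1 varied little. None of the 20 types was called higher and 2 were called lower, those gated on Pmch (14.8 ± 9.40 CPM) and on Hdc (19.1 ± 6.52 CPM), against 40.6 CPM in the other neurons (means over 4 libraries, ± SD). The log2 fold changes were -1.36 (SE 0.33) and -1.12 (SE 0.26), in types where 5.35% and 12.2% of genes were called lower. GABAergic neurons were called higher than the others, with a log2 fold change of 0.14 (SE 0.041, adjusted p = 0.00996), a call lost without vehicle 1 (0.12, adjusted p = 0.0865) and with nuclei thinned to 2000 UMIs (0.16, adjusted p = 0.101). Both lower calls were lost with nuclei thinned to 2000 UMIs (adjusted p = 0.120 and 0.260), that of Hdc also without the nuclei of highest UMI count (adjusted p = 0.0790), and that of Pmch also without ImP 3 (-1.02, adjusted p = 0.0564). The types from Nts at 49.7 ± 12.8 CPM down to Lef1 at 30.5 ± 4.25 CPM each overlapped their neighbours in the order. Neurons with at least 1 Adcyap1 UMI carried an Adcyap1r1 UMI in 16.2% and 16.2% of cases in the ImP libraries and 19.6% and 17.3% in the vehicle libraries, against 14.6%, 15.0%, 17.2% and 15.9% of neurons without one. The neurons with Adcyap1 were the deeper ones, with a median of 4124.5 UMIs, against 3557 UMIs in ImP 3, and the part of depth in this difference was not tested.

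Vipr2 was called higher in 1 of the 20 types, the same suprachiasmatic type as Vip. Suprachiasmatic-type neurons held 105 and 116 CPM in the ImP libraries and 82.1 and 135 CPM in the vehicle libraries, against 6.56, 7.61, 5.71 and 7.39 CPM in the other neurons of the same libraries. Every suprachiasmatic value was more than 10 times that of the other neurons in its library, and the log2 fold change was 3.96 (SE 0.21, adjusted p = 4.1e-75). With the looser gate it was 2.97 (SE 0.12). After thinning, 21.8% and 27.9% of these nuclei in the ImP libraries and 20.7% and 20% in the vehicle libraries had a Vipr2 UMI, against 1.94%, 2.38%, 0.403% and 4.57% of oligodendrocytes. Unthinned shares were 33.3%, 32.6%, 27.9% and 30.0%, against 0.586%, 0.619%, 0.351% and 0.992%, at the median depths given for Vip.

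Reads of Vipr2 share their place with another gene. Gm20658 lies on the opposite strand and overlaps Vipr2 in the reference annotation, and the sources used here do not say whether counting used the strand. Gm20658 measured 135, 119, 104 and 179 CPM in suprachiasmatic-type neurons of ImP 3, ImP 4, vehicle 1 and vehicle 2, and its levels across 27 classes and types were the most like those of Vipr2 among 14171 genes (Pearson r = 0.91 of log2(CPM + 1)). The pair was counted as separate genes, and whether reads of Gm20658 entered the count of Vipr2 was not tested. The gene next most like Vipr2 was Igfbp5, an insulin-like growth factor binding protein (r = 0.74). For Vip these were Npy6r (r = 0.77) and Arhgap40 (r = 0.74). For Adcyap1 they were Adamts2 (r = 0.79) and Nrn1 (r = 0.78), and for Adcyap1r1 Ddah1 (r = 0.85) and Gas1 (r = 0.84). The classes share libraries and nuclei, so these correlations describe the 27 points only.

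Oligodendrocyte precursors were the other class with Vipr2, at 23.8 and 29.2 CPM in the ImP libraries and 27.6 and 18.4 CPM in the vehicle libraries, against 7.30, 8.62, 6.39 and 8.31 CPM in neurons. They lay above neurons in each library, with a log2 fold change of 1.65 (SE 0.28, adjusted p = 4.9e-08) that rests on 50 UMIs. Thinned precursors had a Vipr2 UMI in 4.35%, 5.65%, 5.93% and 4.88% of nuclei in the same order, which was above thinned oligodendrocytes in all libraries, by little in vehicle 2. No Vipr2 UMI was counted in neurons gated on Trh, Pmch or Hcrt, the gene of the orexin peptides, which allows up to 1.99, 2.83 and 4.16 CPM over the 4 libraries together (3 counts). Vipr2 was called lower in these 3 types and in those gated on Oxt, Tac1, Esr1 and Sim1, 7 of 20 in all. The number was 4 without ImP 3, 3 without ImP 4, 5 without vehicle 1, 4 without vehicle 2 and 1 with nuclei thinned to 2000 UMIs. Astrocytes were called lower than neurons for Vipr2 (log2 fold change -1.16, SE 0.28), a call lost in thinned nuclei (-0.62, adjusted p = 0.330).

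Vipr1 was near the limit of detection. It had 20 and 25 UMIs in all kept nuclei of ImP 3 and ImP 4 and 30 and 22 in those of vehicle 1 and vehicle 2, and 81 of these 97 UMIs were in neurons. No UMI was seen in 5440 oligodendrocytes, which allows up to 0.364 CPM over the 4 libraries (3 counts). None of the 10 neuron types in which Vipr1 could be tested passed the threshold. At this depth no class could be named as its source.

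In suprachiasmatic-type neurons, 5 of 10 listed genes known to be induced through cAMP were called higher than in other neurons and 0 lower, where 2.45% of all genes were called higher. The median log2 fold change of the 10 was 0.91, against -0.11 over all genes tested. Sik1, a kinase induced by cAMP, held 36.2 and 68.6 CPM in the ImP libraries and 68.4 and 43.9 CPM in the vehicle libraries, against 13.8, 12.7, 15.2 and 12.4 CPM in other neurons. Its log2 fold change was 1.99 (SE 0.23), and the clock genes Per2 and Per1 followed with 1.78 (SE 0.26) and 1.75 (SE 0.26). Crem, a cAMP-responsive transcription factor, reached 1.13 (SE 0.16). Fos, an immediate early gene, was called higher at 1.25 (SE 0.23) but held 6.58 CPM in ImP 3, against 81.8, 27.4 and 67.5 CPM in the other libraries, and lost the call without ImP 4 (0.83, adjusted p = 0.120). Per1, Per2 and others of the list are rhythmic in this nucleus, and the time of day of sampling is not given in the sources used here.

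**Figure D3:**
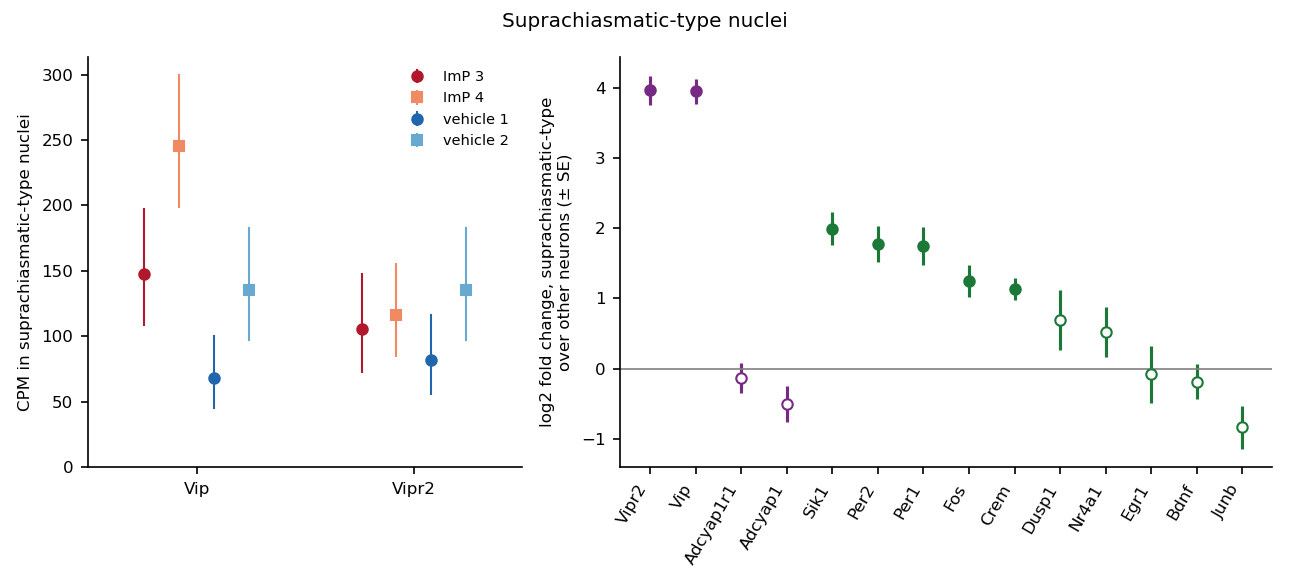
Left, CPM of Vip and Vipr2 in suprachiasmatic-type nuclei of ImP 3, ImP 4, vehicle 1 and vehicle 2 with exact Poisson 95% intervals (counting error only). Right, log2 fold change ± SE of 4 genes of the family (purple) and 10 cAMP-responsive genes (green) in suprachiasmatic-type over other neurons, filled where adjusted p was under 0.05, with Vipr2 and Vip near 4 and Sik1, Per2, Per1, Fos and Crem between 1.13 and 1.99.

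Fewer of the other listed genes of the pathway were called in suprachiasmatic-type neurons, where 2.45% of all genes were called higher and 3.7% lower. Of 24 genes of the cAMP route, 1 was called higher, the phosphodiesterase gene Pde4b (log2 fold change 0.29, SE 0.089), and 2 lower, the cAMP sensor Rapgef4 (-0.43, SE 0.11) and the adenylyl cyclase Adcy1 (-1.17, SE 0.36). Of 8 genes of peptide maturation, the convertase Pcsk2 was higher (0.38, SE 0.092) and its relative in the list, the convertase inhibitor Pcsk1n, lower (-0.50, SE 0.10). Leaving out 1 library ended the calls of Pde4b (without ImP 3, ImP 4 or vehicle 1, adjusted p = 0.200, 0.122 and 0.0650), of Rapgef4 (without vehicle 2, 0.207) and of Adcy1 (without ImP 3 or vehicle 1, 0.139 and 0.265). Of 7 relatives of the family tested, Glp2r, the receptor of a glucagon-like peptide, was lower (-0.56, SE 0.19, adjusted p = 0.0486), a call that was lost without any 1 of the 4 libraries (adjusted p 0.109 to 0.195). None of the 8 receptor partners was called by edgeR, and none had an unadjusted p under 0.05.

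In astrocytes, the class with the most Adcyap1r1, 5 of 8 listed receptor partners were called higher than in neurons and 2 lower, where 57.4% of all genes were called. Grk3, a receptor kinase, held 258 and 251 CPM in astrocytes of the ImP libraries and 367 and 319 CPM in those of the vehicle libraries, against 41.0, 38.6, 45.1 and 40.3 CPM in neurons (log2 fold change 2.74, SE 0.086). Ramp1, a receptor activity-modifying protein gene, had a log2 fold change of 2.49 (SE 0.11), and the arrestin gene Arrb1 one of 1.07 (SE 0.083). Sctr, the secretin receptor gene, was also higher, at 7.27 and 2.14 CPM in astrocytes of the ImP libraries and 12.5 and 6.69 CPM in those of the vehicle libraries, against 0.396, 0.0977, 0.317 and 0.122 CPM in neurons (4.79, SE 0.42).

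Whether ImP changed these genes was tested in 8 classes, and none of the 5 genes passed the threshold in any of them, with edgeR or with DESeq2. Unadjusted p was under 0.05 for Vip in 6 of 7 classes and for Adcyap1 in 4 of 7 in which each could be tested. These classes are not separate, since all nuclei include neurons, and neurons include the transmitter and suprachiasmatic types. The matching counts over all genes are given only for oligodendrocytes, suprachiasmatic-type neurons and, further below, neurons. Without them for the other classes, these counts of classes are not read as a result about Vip or Adcyap1. Few genes of any kind were called, 0.0047% of all tested in all nuclei, 0.00488% in neurons, 0.0117% in GABAergic neurons, 0.0409% in glutamatergic neurons, 0.024% in astrocytes, 0.191% in precursors and 0% in both oligodendrocytes and suprachiasmatic-type neurons. Unadjusted p was under 0.05 for 1371 of 12532 genes in oligodendrocytes and 293 of 6221 in suprachiasmatic-type neurons, where DESeq2 called 6 and 0 genes.

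Vip had the largest log2 fold change of the family in 6 of the 8 classes. Adcyap1 had it in GABAergic neurons (0.73, against 0.72 for Vip) and in precursors (0.88), where Vip was too low to be tested. All neurons held 11.2 and 17.0 CPM of Vip in the ImP libraries, against 4.95 and 9.16 CPM in the vehicle libraries. The log2 fold change was 1.01 (SE 0.32, edgeR, adjusted p = 0.50). In suprachiasmatic-type neurons, where ImP 3 and ImP 4 held 148 and 245 CPM and vehicle 1 and vehicle 2 held 68.4 and 135 CPM, it was also 1.01 (SE 0.32, adjusted p = 0.995). In glutamatergic neurons, with 7.97 and 10.2 CPM, against 2.08 and 4.64 CPM, it was 1.49 (SE 0.37, adjusted p = 0.212).

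The log2 fold change of Vip moved when single libraries were left out. Such fits keep 1 library in a group, so its size alone is given here. Without ImP 3 it was 1.29 in neurons, 1.11 in GABAergic neurons and 1.29 in the suprachiasmatic type. Without vehicle 2 it was 1.56 in the suprachiasmatic type, 2.12 in glutamatergic neurons, 2.12 in astrocytes and 2.44 in oligodendrocytes. Without vehicle 1, the library with the lowest Vip, it was 0.62 in neurons and 0.56 in the suprachiasmatic type, and without ImP 4 it was 0.58 in the suprachiasmatic type and 0.18 in GABAergic neurons. Without vehicle 1 it was also lower in GABAergic neurons (0.35), glutamatergic neurons (0.96), astrocytes (0.22) and oligodendrocytes (0.39). With all libraries, Vip passed in glutamatergic neurons when no filter on low counts was used (1.48, edgeR, adjusted p = 0.0012).

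The Vip difference was not limited to neurons. Oligodendrocytes held 19.5 and 22.8 CPM of Vip in the ImP libraries, against 3.77 and 15.9 CPM in the vehicle libraries (log2 fold change 1.06, SE 0.42, adjusted p = 0.402), and astrocytes 20.7 and 17.6 CPM, against 4.39 and 16.0 CPM (log2 fold change 0.91, SE 0.43, adjusted p = 0.438). In both glial classes vehicle 1 was low and vehicle 2 close to the ImP libraries. The 6 suprachiasmatic markers summed to 80.4 and 119 CPM in oligodendrocytes of the ImP libraries, against 52.2 and 111 CPM in those of the vehicle libraries, with none of the 6 at 0. In astrocytes the sum was 998 and 882 CPM, against 1088 and 1098 CPM, with 1 of the 6 at 0 in ImP 3. The same sum in neurons was 273 and 311 CPM, against 248 and 289 CPM, below astrocytes in every library. The astrocyte sum was not split by marker and is not used as a measure of free RNA. In neurons Rorb alone held 225 and 256 CPM of the sum, against 205 and 242 CPM. Syt10 held 30.5 and 35.4 CPM in neurons, against 28.3 and 29.8 CPM, and Prok2 4.80 and 4.86 CPM, against 2.61 and 3.96 CPM. Six6 held 1.98 and 3.52 CPM, against 1.73 and 2.31 CPM, and Nms 1.06 and 1.05 CPM, against 0.585 and 0.972 CPM. Lhx1 held 9.23 and 9.94 CPM, against 9.75 and 10.6 CPM. Fewer suprachiasmatic cells in a dissection and less Vip RNA per cell cannot be told apart in neurons as a whole, and the part of free RNA and of dissection in the Vip values was not tested.

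Vip-rich nuclei were most frequent in ImP 4, followed by vehicle 2, ImP 3 and vehicle 1. Nuclei with at least 5 Vip UMIs numbered 12 and 30 in ImP 3 and ImP 4, or 11.98 and 29.3 per 10000 neurons, against 5 and 15, or 6.50 and 16.6 per 10000 neurons, in vehicle 1 and vehicle 2. The ranges of the 2 groups overlapped. The thinned share of suprachiasmatic-type nuclei with a Vip UMI was 17.7% ± 4.52 in ImP libraries and 12% ± 4.78 in vehicle libraries (SD, n = 2 each), and an exact two-sided permutation test gave p = 0.667, where 2 against 2 libraries cannot go below 0.333.

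Adcyap1 had a positive log2 fold change of ImP over vehicle in all 7 classes in which it could be tested, and passed in none. In GABAergic neurons the log2 fold change was 0.73 (SE 0.18, adjusted p = 0.210). It was 0.68 without ImP 3, 0.78 without ImP 4, 0.49 without vehicle 1 and 1.01 without vehicle 2. In astrocytes it was 0.78 (SE 0.22, adjusted p = 0.222), and ranged from 0.62 to 0.94 with 1 library left out. In glutamatergic neurons, the class with the higher level, it was 0.16 (SE 0.13, adjusted p = 0.933). The 8 neuron markers summed to 2349 and 2638 CPM in astrocytes of the ImP libraries, against 1475 and 2065 CPM in those of the vehicle libraries, with none of the 8 at 0, and in oligodendrocytes to 2289 and 2599 CPM, against 1657 and 2409 CPM. Their part in the Adcyap1 values was not tested.

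For Adcyap1 the log2 fold change of ImP over vehicle was 0.58 larger in GABAergic than in glutamatergic neurons (SE 0.15). This interaction, fitted in edgeR with library as a block, did not pass the threshold (adjusted p = 0.889). Thinned shares of GABAergic nuclei with Adcyap1 lay below those of oligodendrocytes in every library. No change of expression in GABAergic neurons is therefore read from the Adcyap1 value. For Vip the log2 fold change was smaller in GABAergic neurons, by -0.75 (SE 0.32, edgeR, adjusted p = 0.998). None of the 5 genes was called in this test by edgeR or by DESeq2, where 1 of 16940 genes (0.0059%) was called by edgeR, 771 had an unadjusted p under 0.05, and DESeq2 called 0. The Adcyap1 difference had been seen in an earlier analysis of these data and is no independent evidence.

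**Figure D4:**
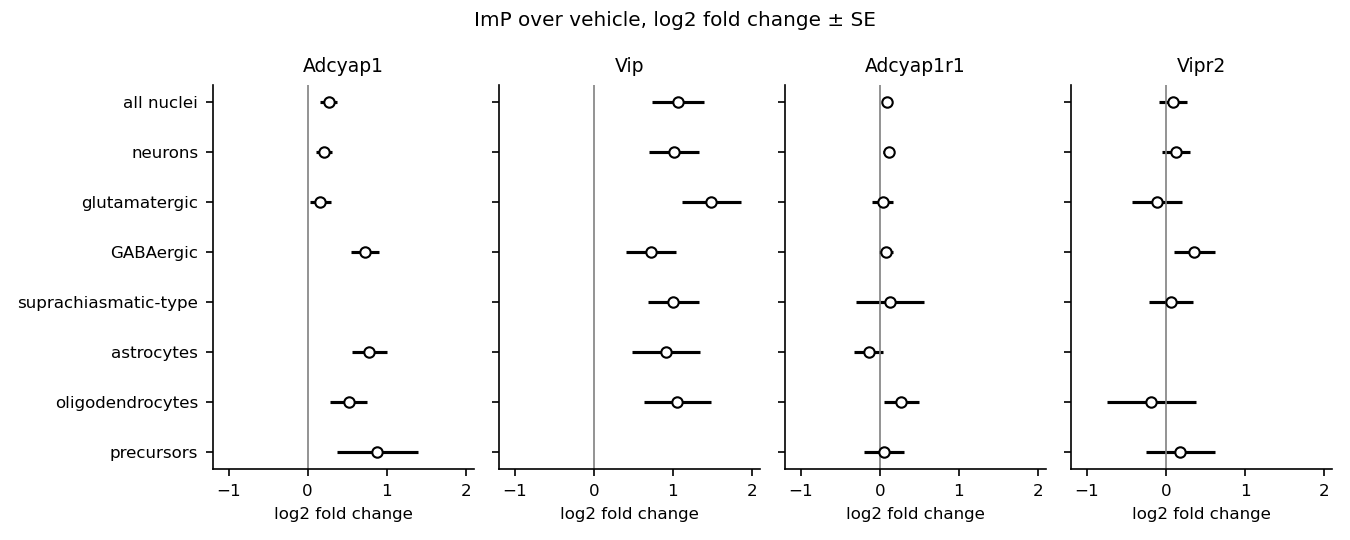
Log2 fold change ± SE of ImP over vehicle for 4 genes in 8 classes, with no point where a gene was too low to be tested. All points are open because none had an adjusted p under 0.05, Vip lies between 0.72 and 1.49, and the receptor genes lie between -0.18 and 0.36.

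The receptor genes differed by less between the groups. Adcyap1r1 had log2 fold changes of 0.11 in neurons (SE 0.070, adjusted p = 0.805), -0.14 in astrocytes (SE 0.18, adjusted p = 0.806) and 0.05 in precursors (SE 0.26, adjusted p = 0.981), and the values in astrocytes of the 2 groups overlapped. Vipr2 had 0.13 in neurons (SE 0.17), 0.06 in suprachiasmatic-type neurons (SE 0.28) and 0.18 in precursors (SE 0.44), and its groups overlapped in each. For Adcyap1r1 the direction turned without ImP 4 in astrocytes (0.07), and for Vipr2 in the suprachiasmatic type without vehicle 1 (-0.28). Vipr1 had -0.36 in neurons (SE 0.32, adjusted p = 0.864).

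Of the listed genes around the family, none was called by edgeR between ImP and vehicle in neurons. Medians of log2 fold change were 0.10 over 8 tested relatives of the family, 0.15 over 8 genes of peptide maturation, 0.01 over 24 genes of the cAMP route, 0.05 over 8 receptor partners and 0.02 over 10 cAMP-responsive genes, against -0.01 over all genes. Unadjusted p was under 0.05 for 2, 3, 0, 1 and 0 of them in that order, and for 1526 of all 20480 genes tested. Ramp1 held 22.5 and 21.7 CPM in neurons of the ImP libraries, against 11.6 and 14.0 CPM in those of the vehicle libraries (log2 fold change 0.80, SE 0.12, edgeR, adjusted p = 0.350). DESeq2 called it (0.80, adjusted p = 1.8e-04), and the edgeR log2 fold change was 0.79 without ImP 3 and 0.83 without ImP 4. Pcsk1n held 344 and 471 CPM, against 284 and 313 CPM (log2 fold change 0.46, SE 0.15, adjusted p = 0.503). Pcsk1n was called by DESeq2 (adjusted p = 0.0258), and its edgeR log2 fold change was 0.68 without ImP 3. Ghrh, the growth hormone-releasing hormone gene, held 5.39 and 9.89 CPM, against 4.07 and 4.98 CPM (log2 fold change 0.77, SE 0.29, adjusted p = 0.625). Without ImP 3 its log2 fold change was 1.15. The G protein gene Gnas had 0.27 with all libraries and 0.43 without ImP 3.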

How the data were processed

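Per the file headers and values, the deposited files hold raw counts of UMIs per gene and barcode for 4 libraries (10x Genomics 3′ kit, v3.1, per the labels' protocols). Cell Ranger 8.0.1, Seurat 5.0.0 and build GRCm39 are named in the submitters' processing notes. Which annotation release was used, and how intronic reads and strand were treated, is not stated in those notes or labels. Total counts were 49508252 and 51945297 UMIs for ImP 3 and ImP 4, against 48060194 and 49291659 for vehicle 1 and vehicle 2, over 15471 and 16348 barcodes, against 11255 and 13723.

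Nuclei with under 500 genes or over 5% mitochondrial UMIs were left out, and no doublet caller was run. Neurons needed 3 of 8 neuron markers. A glial class needed 3 of its markers at 3 times their share in all nuclei, and nuclei with 5 or more neuron markers besides were left out as mixed. Nuclei with 1% or more of their UMIs from pituitary markers were set apart. Single-gene neuron types needed a count that free RNA would give in under 0.001 of neurons, and at least 2 UMIs for the rarest genes. For these gates free RNA was measured in astrocytes and oligodendrocytes together, in the library where it was highest. Of 32 type gates, 20 left at least 20 nuclei in every library, and 29158 neurons passed none. Another planned type is not reported here. GABAergic and glutamatergic nuclei needed 2 transmitter UMIs at a ratio of 3. These thresholds were set after the nuclei had been seen. The 5 genes and the gene lists were chosen with earlier results of these data known.

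UMIs of each class were added up in each library and tested with the quasi-likelihood test of edgeR 4.0.16 in R 4.3.3 (TMM factors, filterByExpr at a minimum count of 10), with Benjamini-Hochberg adjustment over all genes at 0.05. DESeq2 1.42.0, other factors, filters, gates and depths, and leaving out each library were alternatives. Python 3.11.15 with scipy 1.17.1 was used for sums and intervals. Shares were compared after thinning nuclei to 2000 UMIs. Intervals are exact at 95% and cover counting error only, and a count of 0 was read as up to 3. Named genes were the 5 genes, list members past the threshold or otherwise the 2 with the smallest p, and the 5 genes most like each by Pearson r, of which the first 2 are printed. The planned class gated on Nr5a1 and Fezf1 had under 20 nuclei in 3 libraries and was not tested.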

Additional observations from a re-analysis of the deposited data

How the results depend on the processing

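Genes past the threshold between ImP and vehicle moved with the processing. With 1 library left out they ranged from 0 to 157 in all nuclei, 0 to 1060 in neurons, 0 to 775 in GABAergic neurons, 9 to 263 in glutamatergic neurons, 27 to 656 in astrocytes, 0 to 242 in oligodendrocytes, 8 to 112 in oligodendrocyte precursors, 4 to 22 in suprachiasmatic-type neurons and 1 to 21 for the interaction. With no filter on low counts they were 0, 0, 88, 170, 44, 50, 12 and 15 in all nuclei, neurons, GABAergic and glutamatergic neurons, astrocytes, precursors, the suprachiasmatic type and the interaction. DESeq2 gave 375 in all nuclei, 275 in neurons, 90 in GABAergic neurons, 16 in astrocytes, 6 in oligodendrocytes, 3 in precursors and 0 for the interaction. Without the nuclei of highest UMI count there were 6 in GABAergic neurons, 32 in glutamatergic neurons, 0 in astrocytes and 8 for the interaction. Thinning gave 9, 13, 25, 0 and 3 in GABAergic neurons, glutamatergic neurons, astrocytes, precursors and the interaction, and the stricter gate 4, 2 and 75 in GABAergic neurons, glutamatergic neurons and astrocytes. A mitochondrial limit of 2% gave 5, 8 and 0 in GABAergic neurons, astrocytes and precursors. RLE factors gave 24 in precursors and 0 for the interaction, and the looser suprachiasmatic gate, added after the data had been seen, 1.

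Of the 5 genes, the number past the threshold with 1 library left out ranged from 0 to 2 in GABAergic neurons and astrocytes, 0 to 1 in neurons, glutamatergic neurons, oligodendrocytes and the suprachiasmatic type, and was 0 in all nuclei, precursors and the interaction; without a filter on low counts it was 1 in glutamatergic neurons. Against neurons it ranged from 2 to 3 in astrocytes and precursors, 1 to 3 in oligodendrocytes and 0 to 1 in microglia, and was 1 in thinned astrocytes. Among neuron types, thinning left 3 with Adcyap1 higher, 0 with Vip lower, 0 with Adcyap1r1 lower and 1 with Vipr2 lower; with 1 library left out there were 4 with Adcyap1 higher, 8 to 9 lower, 1 with Vip higher, 2 to 3 lower, 0 with Adcyap1r1 higher, 1 to 2 lower, 1 with Vipr2 higher, 3 to 5 lower and 0 with Vipr1 called. The stricter gate left 0 with Vip or Vipr2 higher, because it left too few suprachiasmatic-type nuclei to fit, and 1 with Vip lower. Without the nuclei of highest UMI count, 14 types could be fitted and 0 had Adcyap1r1 lower.

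Differences of thinned shares, ImP minus vehicle, were 0.944 percentage points for Adcyap1 in neurons (0.672 to 1.22 with 1 library left out, an addition after the data had been seen; 0.0264 not thinned, 0.325 at 1000 UMIs, -0.164 with at least 2 UMIs), -4.77 for Adcyap1r1 in astrocytes (-7.34 to -2.20; 0.457 at 1000 UMIs, -0.791 with at least 2 UMIs), 5.74 for Vip in the suprachiasmatic type (2.35 to 9.12; -4.64 with the stricter gate) and 4.52 for Vipr2 there (1.47 to 7.56; -3.31 at 1000 UMIs, -2.48 with at least 2 UMIs, 16.5 with the stricter gate).

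Directions between ImP and vehicle turned with single libraries left out for Adcyap1r1, which ranged from -0.36 (without ImP 3) to 0.074 (without ImP 4) in astrocytes and from -0.12 (without ImP 4) to 0.22 (without ImP 3) in precursors, where it was -0.0070 without vehicle 2. They turned for Vipr2, which ranged from -0.12 (without vehicle 1) to 0.33 (without vehicle 2) in all nuclei and was -0.022 there without ImP 4. It ranged from -0.066 (without vehicle 1) to 0.35 (without vehicle 2) in neurons, from -0.28 (without vehicle 1) to 0.46 (without vehicle 2) in the suprachiasmatic type, where it was -0.017 without ImP 4 and -0.13 when thinned, and from -0.060 (without vehicle 2) to 0.49 (without vehicle 1) in precursors. The interaction ranged from -0.0096 (without ImP 4) to 0.076 (without ImP 3) for Adcyap1r1, with -0.12 without the nuclei of highest UMI count, and from -0.15 (without vehicle 1) to 1.13 (without vehicle 2) for Vipr2. Vip in thinned oligodendrocytes over neurons was -0.50, and with the looser gate Arrb1 and Grk2 in the suprachiasmatic type were 0.060 and 0.036. The cause of these changes was not tested.

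The numbers that open the library names, 111 and 113, were used as a replicate block. Deviations of same-numbered libraries correlated (Pearson r = 0.347 over 16275 genes), but with 2 pairs the numbers are not known to pair the libraries. With the replicate block, 790 genes were called in all nuclei, 704 in neurons, 468 in GABAergic neurons, 186 in glutamatergic neurons, 571 in astrocytes, 815 in oligodendrocytes and 46 in precursors; among the 5 genes it called 1 in all nuclei, neurons, glutamatergic neurons, astrocytes and oligodendrocytes and 2 in GABAergic neurons, namely Vip (1.10 in all nuclei, 1.03 in neurons, 0.70 in GABAergic and 1.48 in glutamatergic neurons and 1.10 in oligodendrocytes, adjusted p 0.0023 to 0.0172) and Adcyap1 (0.73 in GABAergic neurons and 0.78 in astrocytes, adjusted p = 0.0065 and 0.024). Depth limits Vipr1 (97 UMIs in all) and the suprachiasmatic type (280 nuclei), 2 libraries per group limit every ImP test, and peptide UMIs in oligodendrocytes limit what shares of other nuclei can show.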

Other observations

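The other genes most like each member across the 27 classes and types, after those named above, were Nxph4, Sim2 and Gm27239 (r = 0.76 each) for Adcyap1; Rgs16 (0.74), Gm15511 (0.72) and Entrep1 (0.72) for Vip; Eps8 (0.82), Gm44257 (0.81) and Csgalnact1 (0.80) for Adcyap1r1; and 2510002D24Rik (0.69), Mkrn2 (0.66) and Gm12610 (0.66) for Vipr2. Nxph4 encodes a neurexophilin, Sim2 a relative of Sim1, and Rgs16 a regulator of G protein signalling known from the suprachiasmatic nucleus. In thinned nuclei Gm15511 had r = 0.39 and Mkrn2 0.16. The gene most like Vipr1, Gm3264 (0.74), peaked in microglia, where Vipr1 itself rests on 2 UMIs.

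Neurons with a Vip UMI carried a Vipr2 UMI in 4.56% and 4.84% of cases in the ImP libraries and 9.38% and 4.57% in the vehicle libraries, against 2.24%, 2.57%, 2.63% and 2.54% of neurons without one, higher in 4 of 4 libraries. Of 74 nuclei with at least 3 Vipr2 UMIs, 24.3% passed the suprachiasmatic gate, against 0.756% of all neurons, and 8.11% carried a Vip UMI, against 3.06%.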
